A study of Mus musculus with 10 samples.

Results

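Transforming growth factor-β (TGF-β) is a secreted cytokine with 3 isoforms in the mouse, encoded by Tgfb1, Tgfb2 and Tgfb3. The genes described here are these ligands, the receptors Tgfbr1, Tgfbr2 and Tgfbr3, the signal carriers and feedback genes Smad3 and Smad7, and the induced matrix gene Tgfbi. They were chosen by name, and the 9 genes were all found among the 37417 genes of the count table. All 9 passed the filter on low counts, which left 15299 genes for testing.

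RNA-seq had been performed on 10 tumors that Panc02 cells, from a pancreatic ductal adenocarcinoma of the mouse, had formed under the skin of the flank of C57BL/6J mice labelled as wild type and 12 weeks of age. For 5 of them the injected cells had received sgCda, a guide RNA to the cytidine deaminase gene Cda, and for the other 5 sgNT, a control guide with no target. The cells of both groups also carried a doxycycline-inducible Cas9 and had been selected with blasticidin and puromycin, and no tumor was treated. Tumors were taken at day 16, and each replicate is a separate tumor. Per the study's methods, single-cell clones were isolated and a pool of them served survival experiments alone, so these tumors came from other cells than that pool, and the methods describe those no further. The edit concerned the cancer cells alone, whereas the RNA came from whole tumors that also hold host cells, so a lower count can reflect fewer cells of a type or less RNA per cell, and these cannot be told apart.

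TGF-β is made as a latent complex that is held in the matrix until it is released, often by integrins. The active ligand binds the type II receptor, Tgfbr2, which recruits and phosphorylates the type I receptor, Tgfbr1, and this kinase then phosphorylates Smad2 and Smad3. In pancreatic tumors the pathway is best known for activating fibroblasts, for epithelial-mesenchymal transition and for restraining T cells. Tgfbr3 (betaglycan) is a coreceptor that presents ligand and is needed most for the Tgfb2 isoform, Smad7 is an inhibitory SMAD that closes a negative feedback loop, and Tgfbi encodes a secreted matrix protein named for its induction by TGF-β.

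The sequences just upstream of 5 of these genes are shown because they belong to the ligands Tgfb1 and Tgfb2, which lay far apart in level, and to the receptor and SMAD genes whose levels moved together over the tumors. Each is the 250 bases before the RefSeq start site in GRCm38.p6, read 5′ to 3′ on the strand of the gene. Capitals mark the SMAD-binding motif CAGAC or its complement GTCTG, the GC box GGGCGG or CCGCCC, and the TATA box TATAAA or TTTATA, on either strand.
Tgfb1: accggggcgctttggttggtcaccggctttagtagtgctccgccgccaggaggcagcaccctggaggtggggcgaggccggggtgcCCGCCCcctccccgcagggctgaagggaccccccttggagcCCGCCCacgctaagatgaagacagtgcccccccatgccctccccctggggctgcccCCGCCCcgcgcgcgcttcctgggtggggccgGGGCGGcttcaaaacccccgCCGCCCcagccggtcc
Tgfb2: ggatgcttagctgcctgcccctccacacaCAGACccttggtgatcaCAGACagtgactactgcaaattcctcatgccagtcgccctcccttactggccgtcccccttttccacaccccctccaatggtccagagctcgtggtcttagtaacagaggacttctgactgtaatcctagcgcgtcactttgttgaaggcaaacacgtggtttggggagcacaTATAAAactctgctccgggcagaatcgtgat
Tgfbr1: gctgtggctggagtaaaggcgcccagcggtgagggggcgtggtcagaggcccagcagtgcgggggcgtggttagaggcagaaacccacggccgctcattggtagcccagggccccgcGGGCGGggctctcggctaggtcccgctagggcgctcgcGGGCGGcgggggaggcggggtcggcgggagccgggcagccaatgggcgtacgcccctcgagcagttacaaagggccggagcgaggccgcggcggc
Tgfbr2: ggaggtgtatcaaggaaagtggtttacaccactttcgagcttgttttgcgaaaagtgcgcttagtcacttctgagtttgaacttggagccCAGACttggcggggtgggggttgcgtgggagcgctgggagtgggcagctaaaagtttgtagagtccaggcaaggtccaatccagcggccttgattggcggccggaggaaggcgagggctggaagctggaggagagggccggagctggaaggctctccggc
Smad3: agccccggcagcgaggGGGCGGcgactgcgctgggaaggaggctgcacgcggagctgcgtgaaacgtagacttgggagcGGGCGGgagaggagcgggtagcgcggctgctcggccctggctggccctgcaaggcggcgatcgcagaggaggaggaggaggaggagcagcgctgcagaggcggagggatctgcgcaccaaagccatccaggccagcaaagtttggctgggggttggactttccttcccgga
The Tgfb1 window, chr7:25686752-25687001 on the plus strand, held 5 GC boxes and neither other motif, with a GC content of 75.2%. By contrast, the Tgfb2 window, chr1:186705990-186706239 on the minus strand, had 53.6% GC and held 2 SMAD motifs and 1 TATA box. Tgfbr1 (chr4:47352972-47353221, plus strand) and Smad3 (chr9:63757995-63758244, minus strand) each held 2 GC boxes, whereas Tgfbr2 (chr9:116175364-116175613, minus strand) held 1 SMAD motif and no GC box. Among all 32851 windows of the same length, 42.2% held the SMAD motif, 32.7% the GC box and 12.4% the TATA box, and the median GC content was 52.4%. Tgfbr1, Tgfbr2 and Smad3 thus did not share a motif of these 3 in these windows, and a match of letters is a description and not a binding site.

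The 10 libraries held 28051907 to 39484964 counts assigned to genes, so that 3 counts correspond to 0.0760 to 0.107 counts per 1000000 (CPM). Mitochondrial genes took 3.47% to 3.81% of counts in 9 tumors and 5.82% in sgCda tumor 4. A further tumor that stood apart was sgCda tumor 3, in which the summed level of 10 skeletal muscle markers was 2658 CPM against 5.66 to 656 CPM in the other tumors, and that of 10 T cell markers was 666 CPM against 199 to 441.3 CPM. Of the epithelial markers, Krt8 and Krt18 were abundant at 464 and 229 CPM and Epcam was at 1.40 CPM, while Cldn4, Esrp1 and Elf3 did not pass the filter. The targeted gene did not separate the labels, since Cda averaged 12.1 ± 1.76 CPM (SD, n = 5) with the control guide and 9.77 ± 2.34 CPM with sgCda, and the ranges overlapped. Its log2 fold change was −0.30, with a 95% confidence interval (CI) from −0.67 to 0.064 (edgeR adjusted p = 0.9996). In the 19 alternative fits given below it lay between −0.41 and −0.22. The paper checked silencing by quantitative PCR, with primers over the targeted region, and by western blotting. In sorted cells of mouse tumors it also found Cda in endothelial cells and some in fibroblasts. Counts of the whole gene in whole tumors do not test the edit.

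No difference between sgCda and sgNT tumors was found for any of the 9 TGF-β genes. By edgeR's quasi-likelihood test the adjusted p was 0.9996 for every one of them, and 0 of 15299 genes (0.0%) were called at an adjusted p under 0.05. At an unadjusted p under 0.05 the same test held 382 genes (2.5%) and none of the 9. The groups did not overlap at all for 92 genes (0.601%), again with none of the 9 among them. The log2 fold change of sgCda over sgNT was below 0 for 7 of the 9 genes, against 47.1% of all genes tested. The median size of the change was 0.078 on the log2 scale for the 9 genes and 0.078 for all genes. The median standard error (SE) of a fold change over all genes was 0.13.

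**Figure D1:**
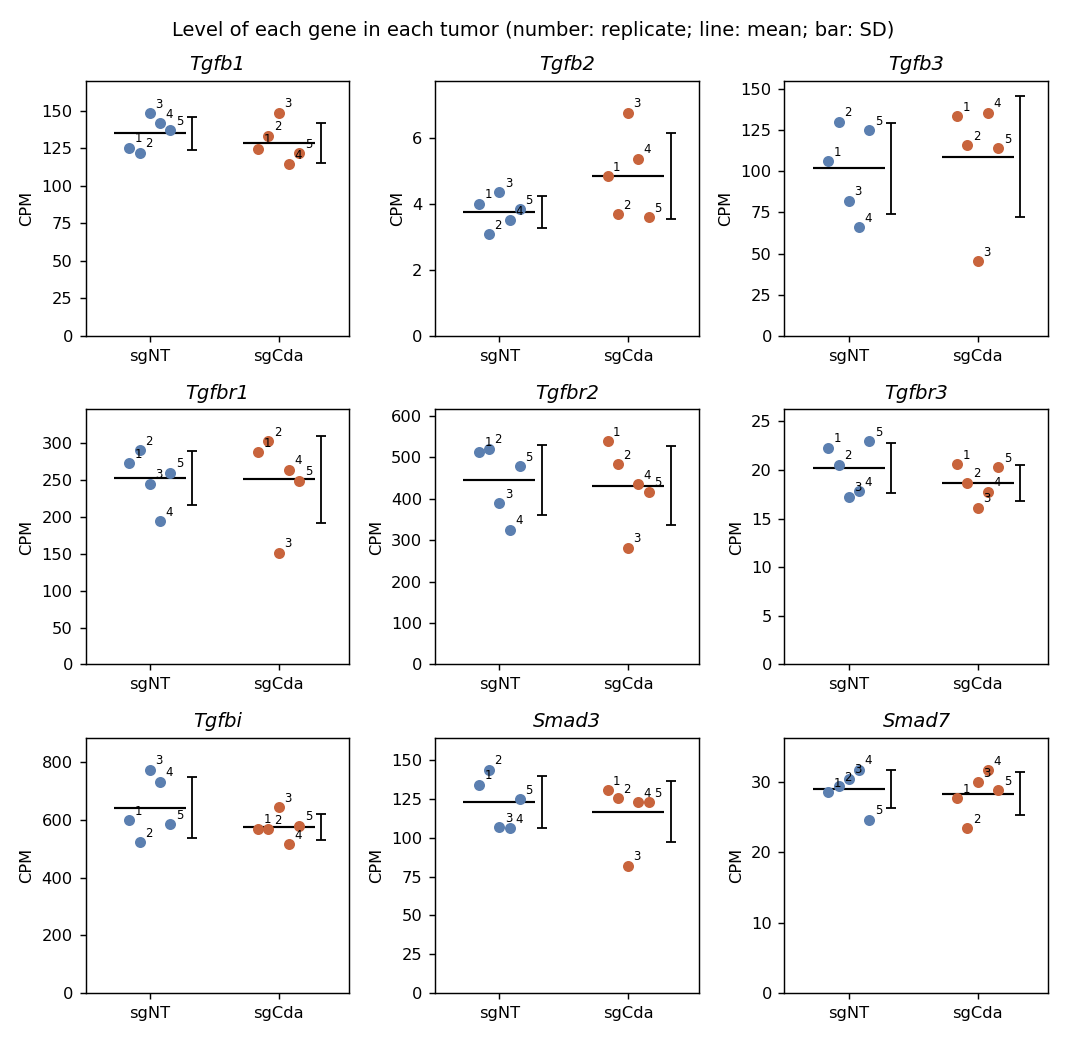
Level of each TGF-β gene in CPM in every sgNT and sgCda tumor. Points are single tumors with their replicate number, lines the mean and bars the SD (n = 5 per group). The points of the groups overlap for all 9 genes, and sgCda tumor 3 is the lowest for Tgfb3, Tgfbr1, Tgfbr2, Tgfbr3 and Smad3.

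Of the ligands, Tgfb1 (chr7:25687002-25705077 in GRCm38, plus strand) is the isoform most often produced by immune cells and platelets. In sgNT tumors 1 to 5 it stood at 125, 122, 149, 142 and 137 CPM, and in sgCda tumors 1 to 5 at 125, 134, 149, 115 and 122 CPM. Tgfb1 was the most even of the 9 genes, with only 1.30-fold between the highest tumor, sgCda 3, and the lowest, sgCda 4, and the groups overlapped over most of their range. The means were 135.0 ± 11.1 CPM (SD, n = 5) in the sgNT group against 128.7 ± 13.1 CPM, a log2 fold change of −0.069 (SE 0.083). The CI of the change runs from −15.9% to 8.11%, which makes Tgfb1 the member with the most tightly bounded difference. Without sgCda tumor 3 the log2 fold change was −0.13 and without sgCda tumor 4 it was −0.028, and it also moved by over 1.5 times without sgNT tumor 2 (−0.10) or sgNT tumor 3 (−0.031).

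Tgfb2 (chr1:186622792-186705989, minus strand) was by far the rarest ligand, also per length, with 98 to 242 counts a tumor, and counting error alone amounted to 6.43% to 10.1% of its value. In sgNT tumors 1 to 5 it was at 4.01, 3.10, 4.37, 3.52 and 3.84 CPM, and in sgCda tumors at 4.84, 3.70, 6.77, 5.38 and 3.61 CPM. The 3 highest were sgCda tumors 3, 4 and 1, but sgCda tumors 2 and 5 lay inside the sgNT range, so the groups overlapped. Tgfb2 had the largest fold change of the 9 genes, 0.37 on the log2 scale (SE 0.19, CI −0.058 to 0.79). The means were 3.77 ± 0.486 CPM (SD, n = 5) in the sgNT group against 4.86 ± 1.31 CPM, and the difference did not pass the test (edgeR adjusted p = 0.9996). Without sgCda tumor 3 the fold change was 0.22. Over 124 of its exonic bases Tgfb2 overlaps Gm29491 on the opposite strand, and as the strand setting of the counting is not given in the sources used here, reads there cannot be told apart.

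Tgfb3 (chr12:86056745-86079041, minus strand), an isoform common in mesenchymal cells, varied most, with 2.97-fold between the highest and the lowest tumor. The sgNT tumors 1 to 5 held 106, 129.8, 82.1, 65.8 and 125 CPM, and the sgCda tumors 133, 116, 45.5, 135 and 114 CPM. Within sgCda, 4 tumors lay between 114 and 135 CPM and tumor 3 lay far below them, lower also than any sgNT tumor, while sgNT tumors 3 and 4 were low as well. The log2 fold change was 0.096 (SE 0.28) with a wide CI of −0.51 to 0.71, on means of 101.7 ± 27.4 CPM (SD, n = 5) in the sgNT group against 108.7 ± 36.7 CPM. Leaving out sgCda tumor 3 moved it to 0.29 and leaving out sgNT tumor 4 to −0.031, so its direction is not fixed by these tumors. Tgfb3 overlaps Gm37804 and Gm48008 on the opposite strand over 420 exonic bases.

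Among the receptors, Tgfbr2 (chr9:116084293-116175360, minus strand), the type II kinase that first binds the ligand, was the most abundant per length of transcript. It stood at 513, 521, 389, 325 and 478 CPM in sgNT tumors 1 to 5 and at 539, 483, 282, 435 and 417 CPM in the sgCda tumors. The lowest tumor was sgCda 3 and the next sgNT 4, and the other tumors of both groups lay between 389 and 539 CPM. The means of 445.3 ± 85.2 CPM (SD, n = 5) in the sgNT group against 431.2 ± 95.7 CPM gave a log2 fold change of −0.046 (SE 0.18, CI −0.43 to 0.34).

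Tgfbr1 (chr4:47353222-47414931, plus strand), the type I kinase that passes the signal on, followed a similar order of tumors at a lower level. Its values were 273, 291, 245, 194 and 259.8 CPM in sgNT tumors 1 to 5, and 287, 302, 152, 264 and 249 CPM in the sgCda tumors. Again sgCda tumor 3 and sgNT tumor 4 were lowest, and sgCda tumor 2 was highest. The group means, 252.5 ± 36.6 CPM (SD, n = 5) in the sgNT group against 250.9 ± 59.2 CPM, were nearly equal, with a log2 fold change of −0.0090 (SE 0.17, CI −0.39 to 0.37). Without sgCda tumor 3 the fold change became 0.13 for Tgfbr1 and 0.073 for Tgfbr2, so that neither direction holds.

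The coreceptor gene Tgfbr3 (chr5:107106570-107289629, minus strand) was expressed far below the signaling receptors, at 22.3, 20.5, 17.2, 17.8 and 22.9 CPM in sgNT tumors 1 to 5 and at 20.6, 18.7, 16.1, 17.7 and 20.3 CPM in the sgCda tumors. The sgNT group held the highest tumor and the sgCda group the lowest, and the rest were interleaved. The means were 20.2 ± 2.57 CPM (SD, n = 5) in the sgNT group against 18.7 ± 1.84 CPM, for a log2 fold change of −0.11 (SE 0.10) with a CI from −0.34 to 0.12. Without sgNT tumor 5 it was −0.059 and without sgCda tumor 3 −0.061. Over 297 exonic bases Tgfbr3 shares its strand with Gm43422, and reads there may be missing from its count.

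**Figure D2:**
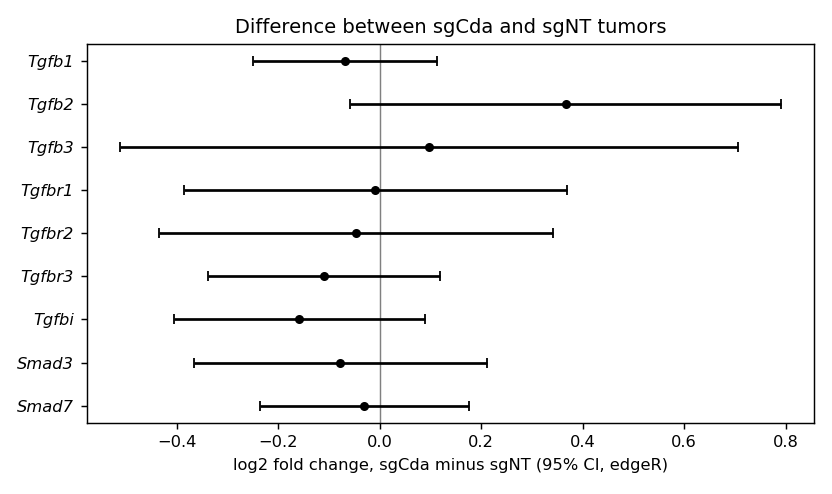
Log2 fold change of sgCda over sgNT tumors with 95% CI for the 9 TGF-β genes, from edgeR's quasi-likelihood fit over 15299 genes. Every interval includes 0, from the narrow one of Tgfb1 (−0.25 to 0.11) to the wide one of Tgfb3 (−0.51 to 0.71).

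Downstream of the receptors, Smad3 (chr9:63646767-63757994, minus strand), the receptor-activated SMAD that enters the nucleus with Smad4, stood at 134, 144, 107, 106 and 125 CPM in sgNT tumors 1 to 5. The sgCda tumors were at 131, 126, 82.1, 123 and 123 CPM. Smad3 showed an order of tumors similar to that of the receptors, with sgCda tumor 3 alone below all others and the remaining sgCda tumors inside the sgNT range. The means were 123.3 ± 16.6 CPM (SD, n = 5) in the sgNT group against 116.9 ± 19.7 CPM, with a log2 fold change of −0.078 (SE 0.13, CI −0.37 to 0.21), which became 0.026 without sgCda tumor 3.

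The feedback gene Smad7 (chr18:75367529-75395935, plus strand) did not follow that order. It was at 28.6, 29.4, 30.5, 31.8 and 24.6 CPM in sgNT tumors 1 to 5 and at 27.7, 23.5, 30.0, 31.7 and 28.9 CPM in the sgCda tumors. Here sgNT tumor 4 and sgCda tumor 4 were highest and sgCda tumor 2 was lowest, and the groups overlapped. Group means were 29.0 ± 2.71 CPM (SD, n = 5) in the sgNT group against 28.4 ± 3.11 CPM, a log2 fold change of −0.030 (SE 0.094, CI −0.24 to 0.18).

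Tgfbi (chr13:56609523-56639562, plus strand), the most abundant of the 9 genes per length, held 14543 to 24962 counts a tumor and a counting error of 0.633% to 0.829%. The sgNT tumors 1 to 5 were at 599, 523, 774, 733 and 584 CPM, and the sgCda tumors at 570.1, 569, 644, 515 and 581 CPM. The 2 highest tumors were sgNT 3 and sgNT 4, and the lowest, sgCda 4, was close to sgNT 2, so the groups overlapped. The means were 642.6 ± 106.1 CPM (SD, n = 5) in the sgNT group against 575.6 ± 45.8 CPM. At −0.16 (SE 0.11), with a CI from −0.41 to 0.089, the log2 fold change was the lowest of the 9 genes, and it did not pass the test (edgeR adjusted p = 0.9996). Without sgNT tumor 3 it was −0.082.

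Levels were compared between genes as CPM per kilobase (kb) of exonic length, over all 10 tumors. Tgfbi led at 161.5 ± 22.5 CPM per kb (SD, n = 10), higher than 98.4% of the genes tested. The signaling receptors followed, Tgfbr2 at 53.5 ± 10.5 and Tgfbr1 at 38.5 ± 7.11 CPM per kb, and Tgfbr2 was higher in 10 of 10 tumors. Next came the ligands Tgfb3 and Tgfb1 at 31.1 ± 9.09 and 26.2 ± 2.37 CPM per kb. Their order was not fixed, since Tgfb3 was higher in 7 of 10 tumors. It also depends on the length used. Exonic lengths were 5042 bases for Tgfb1 and 3383 for Tgfb3, and coding lengths were 1310 and 1236. Without a length, Tgfb1 averaged 131.9 CPM over the 10 tumors, Smad3 120.1 CPM and Tgfb3 105.2 CPM. Smad3 stood at 21.7 ± 3.16 CPM per kb, below Tgfb1 in 9 of 10 tumors with overlapping ranges. Smad7 (6.34 ± 0.612 CPM per kb), Tgfbr3 (2.97 ± 0.344) and Tgfb2 (0.745 ± 0.189) formed the lower end, each range clear of its neighbours. Tgfb2 was thus higher than 18.1% of the genes tested, and Tgfb1 and Tgfb3 higher than 85.7% and 88.5%.

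The summed RNA level of the ligand genes was accordingly made up almost wholly of Tgfb1 and Tgfb3. The split between these 2 genes depends on the exonic lengths used. On the per-kb scale Tgfb3 took 51.5 ± 8.68% of the summed ligand level (SD, n = 5) in the sgNT group against 53.5 ± 13.1% in the sgCda group, and Tgfb1 took 47.3 ± 8.50% and 45.0 ± 12.5%. Tgfb2 held 1.15 ± 0.212% and 1.50 ± 0.665%. No difference in share was found between the groups by a two-sided exact permutation test, with p = 0.762 for Tgfb1, p = 0.317 for Tgfb2 and p = 0.786 for Tgfb3, where 0.00794 is the smallest p the design allows. The exception among the tumors was sgCda 3, in which Tgfb1 made up 66.9%, Tgfb3 30.5% and Tgfb2 2.65% of the summed level. In the other 9 tumors the Tgfb1 share ranged from 35.7% to 58.4%.

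**Figure D3:**
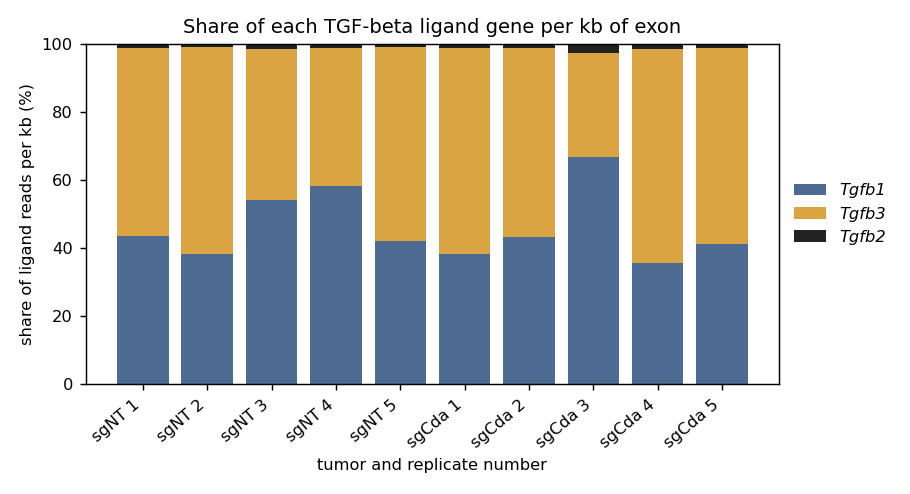
Share of Tgfb1, Tgfb2 and Tgfb3 in the summed ligand level (CPM per kb) in each tumor, as a stacked percentage. The Tgfb1 share is highest in sgCda tumor 3 (66.9%) and next in sgNT tumor 4 (58.4%), and Tgfb2 is a thin layer throughout.

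No difference was found in the balance between partners either. The log2 ratio of the CPM of Tgfbr2 to that of Tgfbr1, used only to set the groups side by side, was 0.81 ± 0.10 (SD, n = 5) in the sgNT group against 0.79 ± 0.11 (exact permutation p = 0.810). For inhibitory Smad7 against receptor-activated Smad3 the log2 ratio of CPM was −2.08 ± 0.28 and −2.03 ± 0.37 (exact permutation p = 0.817), and the adjusted p over the 5 shares and ratios was 0.817 for each.

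The 9 genes varied over the tumors in a partly common pattern. Pearson correlations of log2 CPM over the 10 tumors were computed for all 36 pairs, with permutation tests of 100000 resamples, and 11 pairs passed at an adjusted p under 0.05, 9 of them positive. All tumors share the tissue and the scaling to total counts. The share of pairs among all genes that would pass the same test was not computed. The count of 11 is thus not set against a background. A single axis, the first principal component, held 40.7% of the variance of log2 CPM over the genes tested. Whether the common pattern is particular to these genes was not tested. The 11 pairs kept their sign without the 2 tumors farthest from the median (size of r 0.512 to 0.861), and all 11 also passed with the group means removed, where 15 pairs passed in all. By Spearman's rho 5 pairs passed, 4 of them among the 11.

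One group held both signaling receptors, Smad3 and Tgfb3. Tgfbr1 and Tgfbr2 rose and fell together at r = 0.948 (rho = 0.903, permutation p = 0.00087), with an adjusted permutation p of 0.00162 for r. Tgfbr2 and Smad3 were as closely related at r = 0.941 (rho = 0.952, permutation p = 0.00012), with a permutation p of 1e-05 for r, the smallest these resamples can give, and an adjusted p of 0.00036. For Tgfbr1 and Smad3 r was 0.928 (rho = 0.879, permutation p = 0.00168) at an adjusted p of 0.00504 for r. Without sgCda tumor 3 these 3 pairs still passed, at r = 0.916 (permutation test, adjusted p = 0.0144), r = 0.900 (adjusted p = 0.00873) and r = 0.789 (adjusted p = 0.0472). In each of these genes sgCda tumor 3 was lowest.

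Tgfb3 correlated with Tgfbr1 at r = 0.934, with Tgfbr2 at r = 0.916 and with Smad3 at r = 0.924, each at an adjusted permutation p of 0.00804. With sgCda tumor 3 left out, r was 0.829, 0.831 and 0.802, and the last no longer passed (permutation test, adjusted p = 0.0554). Its rank correlations were lower, with rho of 0.709, 0.721 and 0.588, and none passed (permutation test, adjusted p = 0.0866, 0.0819 and 0.167). Without both sgCda tumor 3 and sgNT tumor 4, r was 0.512, 0.596 and 0.683. Tgfbr3 joined more loosely, at r = 0.776 with Smad3 (adjusted permutation p = 0.0185) and r = 0.781 with Tgfbr2 (adjusted permutation p = 0.0244). Both pairs were lost without sgCda tumor 3, at r = 0.679 (permutation test, adjusted p = 0.112) and r = 0.665 (adjusted p = 0.115).

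Tgfb1 and Tgfbi formed a further pair. They correlated with each other at r = 0.830 (adjusted permutation p = 0.0109) and rho = 0.818 (adjusted permutation p = 0.0428). Without sgCda tumor 3 their r was 0.867 (permutation test, adjusted p = 0.0144). Tgfb1 was inversely related to Tgfb3 at r = −0.786 (adjusted permutation p = 0.0167) and to Smad3 at r = −0.741 (adjusted permutation p = 0.0268). By rank neither pair passed, at rho = −0.782 (adjusted permutation p = 0.0577) and rho = −0.539 (adjusted permutation p = 0.189). Without sgCda tumor 3 these pairs had r = −0.740 (permutation test, adjusted p = 0.068) and r = −0.685 (adjusted p = 0.112), and neither passed. With Tgfbr1 and Tgfbr2 the r of Tgfb1 was −0.629 and −0.648, which did not pass (permutation test, adjusted p = 0.0909 for each). Tgfb3 and Tgfbi had r = −0.707, which did not pass (permutation test, adjusted p = 0.075), although their rho of −0.867 did (adjusted permutation p = 0.0193), as did r = −0.917 without sgCda tumor 3 (adjusted p = 0.0299). Smad7 and Tgfb2 were in none of the 11 pairs.

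**Figure D4:**
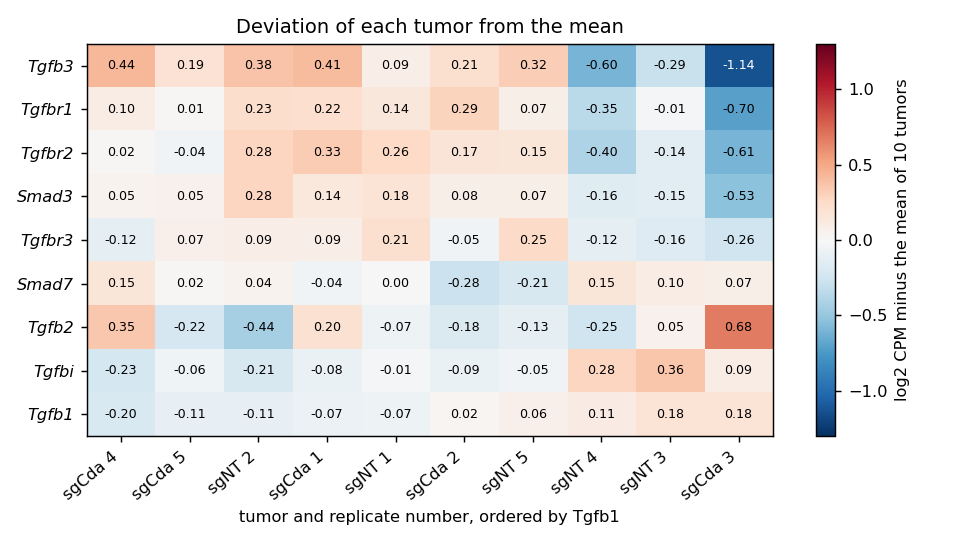
Deviation of each gene from its mean over the 10 tumors (log2 CPM, colour scale) for every tumor. Tgfb3, Tgfbr1, Tgfbr2 and Smad3 are low together in sgCda tumor 3, where Tgfb2 is at its highest. Tgfb1 is level in sgCda tumor 3 and sgNT tumor 3 (0.18 in each).

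Because whole tumors were sequenced, the 9 genes were also set against marker lists of 6 cell types, 54 relations in all. By Pearson's r 0 of them passed at an adjusted p under 0.05, by Spearman's rho 0 passed, and 11 had an unadjusted p under 0.05. The closest were those of Tgfb1 with the macrophage score, r = 0.832 (permutation p = 0.00438, adjusted p = 0.118), and with the T cell score, r = 0.808 (permutation p = 0.00293, adjusted p = 0.118). By rank they had rho = 0.879 (permutation p = 0.00156) and rho = 0.855 (permutation p = 0.00278), each at an adjusted permutation p of 0.0751. Without the 2 tumors farthest from the median r was 0.673 for macrophages and 0.787 for T cells, and without sgCda tumor 3 it was 0.790 and 0.762. With group means removed, Tgfb1 and the T cell score passed at r = 0.856 (permutation test, adjusted p = 0.0487). All 10 macrophage markers passed the filter, and their summed level ranged from 5044 to 7788 CPM in the sgNT group and from 4808 to 8269 CPM with sgCda. The 10 T cell markers passed as well, at 279.6 to 441.3 CPM and 199 to 666 CPM.

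**Figure D5:**
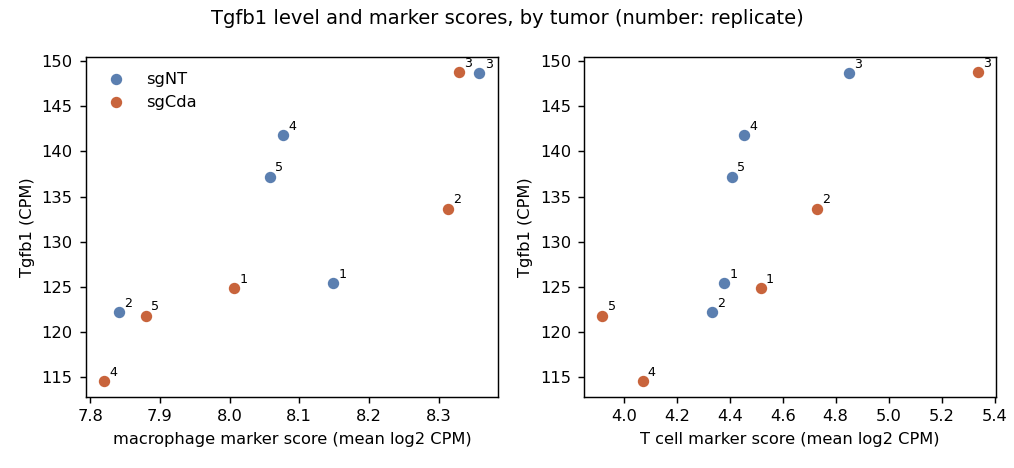
Tgfb1 (CPM) against the macrophage and the T cell marker score (mean log2 CPM of 10 markers each) in the 10 tumors, coloured by group. Tumors with higher scores had higher Tgfb1 (r = 0.832 and r = 0.808 with log2 CPM), and neither relation passed the adjusted threshold over 54 relations.

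Tgfbr3 ran closest to the fibroblast score, at r = 0.779 (permutation p = 0.00841, adjusted p = 0.151) and rho = 0.830 (permutation p = 0.00507, adjusted p = 0.0913). The summed fibroblast markers, 10 of 10 of which passed the filter, were at 1226 to 1626 CPM in the sgNT group and 1036 to 1488 CPM with sgCda, with the lowest value in sgCda tumor 3. The skeletal muscle score, highest in sgCda tumor 3, went with lower Smad3 at r = −0.703 (permutation p = 0.0142, adjusted p = 0.191), and at r = −0.593 without that tumor. The rho of this pair was −0.552 (permutation p = 0.106, adjusted p = 0.365). For Tgfbr3, Tgfb1 and Tgfb3 the r of the muscle score was −0.677, 0.667 and −0.636, and for Tgfbr2 and Tgfbr1 −0.546 and −0.523. The T cell score went with lower Tgfb3 (r = −0.728) and lower Smad3 (r = −0.717). Without sgCda tumor 3 these were −0.377 and −0.305. All 10 muscle markers passed the filter. The part of these cell types in the levels of the TGF-β genes was not tested.

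The rest of the pathway was taken from 4 lists of genes. Over all genes tested 47.1% had a fold change below 0, to be set beside the counts of each list. Of the 18 genes for latency and activation all were tested, 2 had a fold change above and 16 below 0, and 0 were called (median log2 fold change −0.079, against 0.0078 for all genes). Dcn, a proteoglycan that binds TGF-β, averaged 1971 ± 488 CPM (SD, n = 5) in the sgNT group against 1930 ± 752.5 CPM, and Itgb1, the β subunit of many integrins, was at 843.8 ± 39.1 and 820.6 ± 47.2 CPM. Per kb both were far above the ligands, and their group means differed by less than their SD.

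Furin, the protease that cleaves the TGF-β precursor, had the smallest p of the genes in these lists. It was at 161, 164, 168, 169.5 and 164 CPM in sgNT tumors 1 to 5 and at 157, 140.1, 143, 130.1 and 151 CPM in the sgCda tumors. All 5 sgCda tumors thus lay below all 5 sgNT tumors, a pattern that 0.601% of genes showed in either direction. A log2 fold change of −0.20 (SE 0.059), with a CI from −0.33 to −0.068, did not pass over all genes (edgeR adjusted p = 0.9996). Furin overlaps Gm44851 on the opposite strand over 118 exonic bases.

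Itgb6, the epithelial integrin subunit that activates latent TGF-β, had a fold change of 1.19 on the log2 scale (SE 0.44, CI 0.22 to 2.16; edgeR adjusted p = 0.9996). Its values were 0.674, 0.821, 0.837, 1.10 and 0.704 CPM in sgNT tumors 1 to 5 and 1.14, 1.06, 1.48, 4.75 and 1.04 CPM in the sgCda tumors. The level was near the filter throughout, sgCda tumor 4 alone was far above the rest, and sgNT tumor 4 lay among the sgCda tumors. Without sgCda tumor 4 the fold change was 0.52.

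Of the 17 transducers and inhibitors, all tested, 3 had a fold change above and 14 below 0, and 0 were called (median log2 fold change −0.041). Smad6, an inhibitory SMAD that acts mainly on bone morphogenetic protein (BMP) signaling, was at 5.77, 5.02, 6.20, 6.60 and 6.06 CPM in sgNT tumors 1 to 5 and 4.58, 5.71, 4.45, 4.61 and 4.68 CPM in those with sgCda. In 4 of 5 sgCda tumors it was below every sgNT tumor, and sgCda tumor 2 lay inside the sgNT range. The CI of its log2 fold change of −0.30 (SE 0.12) ran from −0.57 to −0.030 (edgeR adjusted p = 0.9996). Smad4, the common partner SMAD that pancreatic tumors often lose, was present in all tumors, at 32.5 ± 3.06 CPM (SD, n = 5) in the sgNT group against 34.8 ± 2.18 CPM. Ski, a corepressor of SMADs, was at 267.6 ± 22.7 and 249.4 ± 34.9 CPM, and Pmepa1, a TGF-β-induced inhibitor of the pathway, at 243.9 ± 27.9 and 262.7 ± 65.1 CPM.

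Among related receptors of the family, 10 of 11 were tested, as Bmpr1b fell below the filter. Of these 4 had a fold change above and 6 below 0, with 0 called and a median of −0.055. The type I receptors Bmpr1a and Acvr1 were the highest per kb, with sgNT and sgCda means of 119.8 and 118.1 CPM for Bmpr1a and of 68.9 and 70.1 CPM for Acvr1. The smallest p of a negative fold change belonged to Bmpr2, the BMP type II receptor, with a log2 fold change of −0.32 (SE 0.17; edgeR adjusted p = 0.9996) on means of 57.5 ± 11.1 CPM (SD, n = 5) and 46.0 ± 10.8 CPM. With limma-voom and quality weights it was −0.084. In the other direction it belonged to Acvr2b, an activin type II receptor, at 1.26 and 1.42 CPM.

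Of the target genes 23 of 24 were tested, as Il11 fell below the filter, 7 had a fold change above and 16 below 0, and 0 were called (median −0.070). Fn1, encoding the matrix protein fibronectin, averaged 5942 ± 1348 CPM (SD, n = 5) in the sgNT group against 5309 ± 1559 CPM, and Col1a1, a chain of type I collagen, was at 1047 ± 539.8 and 1026 ± 385 CPM. Closest to the threshold in either direction were Comp and Snai1, with changes of 0.43 on the log2 scale (SE 0.35) for Comp, a cartilage and fibroblast matrix gene near 1 CPM, and −0.20 (SE 0.15) for Snai1, a transcription factor of epithelial-mesenchymal transition. Without sgCda tumor 4 the change of Comp was 0.0031. That of Snai1 was −0.13 without sgCda tumor 1 and −0.11 without sgCda tumor 3. Over all 4 lists, Furin and Smad6 had a CI below 0, Itgb6 had one above 0, and those of the other genes tested included 0. These 3 of 68 genes tested had an unadjusted edgeR p under 0.05, as did 382 of all 15299 genes (2.5%).

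For each of the 9 genes the gene with the most similar pattern over the 10 tumors was then found among 10329 genes, as a description with no test. Each r below is the highest of 10329 values over 10 tumors, so its size is partly a product of the search. A shared role of the partners was not tested. Smad3 and Pdgfra, a receptor of platelet-derived growth factor that marks fibroblasts, had r = 0.996, the closest of these pairs, and r = 0.992 without the 2 tumors farthest from the median. With the score of all 10 fibroblast markers, of which Pdgfra is 1, the r of Smad3 was 0.363. Tgfb3 was most like Gtpbp8 (r = 0.991), Tgfbr1 most like Fbln7 (r = 0.989) and Tgfbr2 most like Sync (r = 0.978). Tgfbr3 was closest to Zfp768 (r = 0.964), Tgfb1 to Myd88, an adaptor of Toll-like receptors (r = 0.961), and Tgfbi to the interferon-induced gene Oas1a (r = 0.956). The lowest values were those of Tgfb2 with Napg (r = 0.928) and of Smad7 with Ltbp1, which encodes a protein that binds latent TGF-β (r = 0.926). The latter fell to 0.795 without the 2 farthest tumors and Napg to 0.727, so that these partners rest partly on single tumors.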

How the data were processed

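RNA-seq of 10 s.c. Panc02 tumors, 5 sgNT and 5 sgCda, was used, grouped by the sample titles. Per the study's methods, the authors isolated polyadenylated RNA, made stranded libraries, read the first bases of each fragment and aligned to GRCm38 (mm10) with TopHat and Bowtie. The submitters' processing notes also name Bowtie2, FastQC 0.11.5 and HTSeq 07.2. The authors deposited whole-number counts per Ensembl gene from HTSeq, with no normalization. The strand setting and annotation release are not given in the sources used here. HTSeq drops reads that hit several places or several genes, which lowers genes with copies or overlaps.

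The count table held 37417 genes and 5 summary lines, which were left out. A symbol was matched to 32608 genes. Positions and exonic lengths came from GENCODE M21 (GRCm38), and promoter windows from RefSeq (GRCm38.p6), where 6 of the 9 members matched.

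Counts were filtered with filterByExpr (minimum count 10, minimum total 15), scaled by TMM and tested with edgeR 4.0.16 (R 4.3.3) by the quasi-likelihood test with Benjamini-Hochberg adjustment over 15299 genes. The calculation was tested on simulated counts. SEs and 95% CIs follow from the F statistic. Correlations used log2 CPM with a prior count of 2. CPM, with TMM-scaled library sizes, and CPM per kb were computed from the deposited counts. Depth was 28051907 to 39484964 counts, and counting errors given for single genes cover counting only. The lowest chi-square per degree of freedom between libraries was 10.5, so each pair differed by more than sampling noise. Alternatives were DESeq2 1.42.0, limma-voom (limma 3.58.1, with and without quality weights), other size factors and filters, a replicate block, a muscle score as covariate and leaving out each tumor. As the labels name separate tumors only, p-values weigh the group difference against the spread between these tumors. The guides were introduced before injection, so the tumors of a group are not known to be separate edits. A difference between the guides cannot be told apart from one between the cell populations injected.

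The members, gene lists and rules were chosen with earlier results of these data known. Named pathway genes were, per list, the 2 with the highest level per kb and the 1 with the smallest p in each direction. The most similar gene of each member was the one with the highest r among genes with a mean log2 CPM of at least 3.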

Additional observations from a re-analysis of the deposited data

Results flagged for a closer look

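Within each group of 5 tumors, a value was noted when the gap to its nearest neighbour exceeded 0.71 of the group's range, Dixon's 95% critical value. Of 72 groups of 5 values examined, 11 held such a value, where chance gives about 1 in 20, or 3.6. Of these, 6 belonged to sgCda tumor 3, and these values are not independent of each other. In that tumor Tgfb3 was at 45.5 CPM against 114 to 135 CPM in the other sgCda tumors, and Smad3 at 82.1 CPM against 123 to 131 CPM. Its ligand shares were flagged too, but they are parts of one sum that includes Tgfb3 and add no separate observation. They were 66.9% for Tgfb1 against 35.7% to 43.2%, 2.65% for Tgfb2 against 1.04% to 1.46%, and 30.5% for Tgfb3 against 55.8% to 62.8%. Dcn, the TGF-β-binding proteoglycan, was at 614 CPM there and at 1999 to 2422 CPM in the other sgCda tumors.

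In sgCda tumor 4, Itgb6 reached 4.75 CPM against 1.04 to 1.48 CPM, and Comp 2.41 CPM against 0.727 to 0.963 CPM. Smad6 was at 5.71 CPM in sgCda tumor 2 against 4.45 to 4.68 CPM. Among sgNT tumors, Ski was at 228 CPM in tumor 4 against 267 to 282 CPM, and the T cell score, a mean log2 CPM, was 4.85 in tumor 3 against 4.33 to 4.45.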

How the results depend on the processing

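In each of the 19 alternatives 0 genes were called, so no member and no other pathway gene was called in any. Ligand shares and ratios were recomputed under leaving out each tumor, coding length, a prior count and the replicate block only, and none passed. Tgfb1, Tgfb2, Tgfbr3 and Tgfbi kept the sign of their log2 fold change in all 19, Tgfb1 between −0.13 and −0.028, Tgfbr3 between −0.16 and −0.043, Tgfb2 between 0.22 and 0.46 and Tgfbi between −0.23 and −0.082. With limma-voom quality weights the log2 fold change became positive for Tgfbr1 (0.10), Tgfbr2 (0.11), Smad3 (0.021), Dcn (0.078), Itgb1 (0.016), Bmpr1a (0.060), Fn1 (0.065) and Col1a1 (0.21), and with plain limma-voom for Col1a1 (0.034). With the muscle score as covariate it became positive for Tgfbr1 (0.070), Tgfbr2 (0.051), Smad3 (0.0033), Dcn (0.13) and Bmpr1a (0.042). Quality weights also reduced Bmpr2 to −0.084, Comp to 0.16 and Tgfbr3 to −0.043, and moved Snai1 to −0.33. The cause was not tested.

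Leaving out 1 tumor at a time, the fold change ranged from −0.031 to 0.29 for Tgfb3, from −0.095 to 0.13 for Tgfbr1, from −0.15 to 0.073 for Tgfbr2, from −0.13 to 0.026 for Smad3 and from −0.084 to 0.033 for Smad7. The ranges were −0.16 to 0.20 for Dcn, −0.063 to 0.065 for Bmpr1a, −0.022 to 0.12 for Acvr1 and −0.20 to 0.27 for Col1a1. The difference in share ran from −7.73 to 0.491 percentage points for Tgfb1 and from −0.873 to 7.67 for Tgfb3, and the difference in log2 ratio from −0.056 to 0.0080 for Tgfbr2 to Tgfbr1 and from −0.090 to 0.15 for Smad7 to Smad3. Between 8 and 12 pairs of members correlated at an adjusted permutation p under 0.05, against 11 with all tumors. The pairs were not always the same. Without sgCda tumor 3, 8 pairs passed, 6 of them among the 11. By Spearman's rho 5 pairs passed, and with group means removed 1 relation with a marker score passed against 0.

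Replicate numbers recur in both groups, but the tumors of one number came from different mice, and their deviations correlated at −0.0281, −0.0236, 0.331, −0.427 and 0.343, with only tumors 3 and 5 most like their own number. The replicate block therefore has no basis in the design. It called 0 genes, as did the fit without it, and turned Col1a1 to 0.029. Depth limits Tgfb2 most, at 98 to 242 counts a tumor.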
